A study of Mus musculus with 8 samples.

Results

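The chromatin described here lies in and around 10 mouse genes for making serine, one-carbon units and nucleotides: Phgdh, Psat1, Psph, Shmt1, Shmt2, Gldc, Mthfd1l, Mthfd2, Ppat and Cad. Peaks were taken by position alone. Of 134407 peaks in the deposited ATAC-seq table, 191 had their centre inside the GRCm38 span of one of these genes or within 50 kb of it. The gene itself was the nearest protein-coding gene for 80 of them, and the other 111 lay nearer to a neighbour, which is named with each such peak. ATAC-seq marks open chromatin by where the Tn5 transposase can cut. Both groups were wild-type mouse embryonic stem cells of 1 line, E14, kept on gelatin in serum with LIF. The 4 control libraries came from cells in the control condition and the 4 paused libraries from cells given 200 nM INK128, an mTOR kinase inhibitor, for 24 h, and each library was made from 50000 live cells. The labels do not say whether the 4 replicates of a group were separate cultures, so p-values measure only the spread between these libraries, which may be technical.

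Serine is made from a glycolytic intermediate by the enzymes Phgdh, Psat1 and Psph in turn. Shmt1 in the cytosol and Shmt2 in mitochondria then move a carbon from serine onto folate and leave glycine, which the glycine cleavage enzyme Gldc can break down for a further carbon. In mitochondria Mthfd2 and Mthfd1l turn the folate-bound carbon into formate, which feeds the purine pathway opened by Ppat and the making of thymidylate, while Cad carries out the opening steps of pyrimidine synthesis. mTOR signalling is known to raise transcription of several of these genes through the factor Atf4 and to activate Cad by phosphorylation, and mouse embryonic stem cells are known for their dependence on threonine and glycine breakdown as a source of one-carbon units.

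The start-site windows of 4 genes are printed to show where the peaks sit. Phgdh and Psat1 open the serine pathway and Mthfd2 the mitochondrial folate pathway, and the values of their start-site peaks overlapped between the groups. Paics, a purine synthesis gene that shares its start region with Ppat, holds part of the only start-site peak of the 10 genes that passed the test. Each window runs from 250 bases before the annotated start to 50 after it, 5′ to 3′ on the gene's strand, from RefSeq (GRCm38.p6). Capitals mark the bases that lie inside the 201 bp peak. The windows are chr3:98339920-98340219 (minus strand) for Phgdh, chr19:15925010-15925309 (minus strand) for Psat1, chr6:83317555-83317854 (minus strand) for Mthfd2 and chr5:76951052-76951351 (plus strand) for Paics.
Phgdh: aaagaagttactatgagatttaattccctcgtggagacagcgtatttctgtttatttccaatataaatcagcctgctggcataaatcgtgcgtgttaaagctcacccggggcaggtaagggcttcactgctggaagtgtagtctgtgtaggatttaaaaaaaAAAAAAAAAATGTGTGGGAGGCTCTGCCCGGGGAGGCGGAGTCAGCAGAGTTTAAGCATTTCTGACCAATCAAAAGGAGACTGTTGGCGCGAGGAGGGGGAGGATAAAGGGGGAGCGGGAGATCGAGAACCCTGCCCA
Psat1: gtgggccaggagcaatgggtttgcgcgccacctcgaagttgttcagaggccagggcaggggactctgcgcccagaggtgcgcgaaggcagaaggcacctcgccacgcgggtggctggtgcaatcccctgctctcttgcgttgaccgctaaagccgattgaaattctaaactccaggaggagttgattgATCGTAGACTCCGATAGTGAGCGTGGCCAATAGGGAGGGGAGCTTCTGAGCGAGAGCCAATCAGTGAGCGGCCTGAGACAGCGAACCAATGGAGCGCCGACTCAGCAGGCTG
Mthfd2: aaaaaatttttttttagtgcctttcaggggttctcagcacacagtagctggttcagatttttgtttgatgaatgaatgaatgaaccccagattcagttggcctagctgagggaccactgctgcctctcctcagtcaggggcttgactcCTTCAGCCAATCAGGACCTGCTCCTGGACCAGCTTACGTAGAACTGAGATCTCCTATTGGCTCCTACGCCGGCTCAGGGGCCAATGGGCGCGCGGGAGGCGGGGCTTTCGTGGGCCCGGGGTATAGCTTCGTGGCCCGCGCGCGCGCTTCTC
Paics: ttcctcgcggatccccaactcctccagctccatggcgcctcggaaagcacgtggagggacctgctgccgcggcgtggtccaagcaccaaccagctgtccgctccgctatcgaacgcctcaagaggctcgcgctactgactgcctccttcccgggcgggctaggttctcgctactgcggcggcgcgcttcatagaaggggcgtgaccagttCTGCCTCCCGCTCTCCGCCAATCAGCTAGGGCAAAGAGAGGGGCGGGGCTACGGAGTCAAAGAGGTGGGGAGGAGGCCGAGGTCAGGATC
The Phgdh peak covered 138 of the 300 bases, that of Psat1 112, that of Mthfd2 152 and the Paics window 90. The annotated start of Ppat lies 276 bp from that of Paics on the opposite strand, and the peak covers the Paics start with its centre between the 2 starts, so that the Ppat window itself held none of it.

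Values are the deposited ones, reads per 201 bp peak divided by 1 factor per library. The reads recovered from them ran from 4434037 per library in control replicate 3 to 21161767 in control replicate 1, and the median per peak was 91 reads in control replicate 1 against 18 to 29 in the others. As a check of the label, 7 of 8 embryonic stem cell marker genes had a peak within 2 kb of a gene end (none at Dppa5a), with a median value of 203 in control and 231 in paused libraries. Gene ends of other lineages were also open. Peaks were found at 4 of 4 trophoblast and 4 of 4 fibroblast genes. They were also found at 2 of 3 neural and 2 of 4 primitive endoderm genes. The control medians were 129, 83.5, 140 and 42.5 in the same order, and the paused medians 155, 90.8, 161 and 44.6. The median of every list was thus higher in paused libraries on the deposited scale, not only that of embryonic stem cells. A gene without a peak entered its list's median as 0, for embryonic stem cells too. The primitive endoderm genes with a peak, Gata6 and Sox17, had control means of 85.1 and 115. Open chromatin at these genes therefore did not set the cell types apart, and in bulk libraries fewer cells of a type and less open chromatin per cell cannot be told apart.

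Few of the peaks around the 10 genes passed the test, and those that did went in both directions. A peak was called when its Benjamini-Hochberg adjusted p in limma-trend, fitted on log2(value + 1) over the 127402 peaks whose mean value reached 10, was under 0.05. Of the 191 peaks, 183 passed that filter on low values and 8 did not. There were 14 higher and 8 lower peaks in paused cells, 22 of 183 or 12.0%, against 13.9% of all peaks tested. The higher calls made up 7.65% (11.0% of all peaks) and the lower calls 4.37% (2.91% of all peaks). The share called is near the background and is not a result about these genes. After TMM rescaling of the recovered reads the same count was 5 higher and 13 lower (5.98% and 4.14% of all peaks), so that the split between the directions depended on the scaling. The median log2 change was 0.04, against 0.10 for all peaks tested.

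The 4 paused values lay wholly above the 4 control values in 13 of the 183 peaks (7.10%, against 13.0% of all peaks) and wholly below in 13 (7.10%, against 4.36%). Of the called peaks, 9 of the 14 higher and 7 of the 8 lower ones had no overlap. The higher peaks had a median value of 63.9, and the lower ones were weak, with a median value of 17.1 and a median of 17.8 reads per library. When each library was corrected by loess for peak strength, 8 of the 183 peaks were called, 5 of them among the 22, against 8.60% of all peaks. Leaving out 1 library moved the higher calls from 14 to 8 without control replicate 4, to 9 without paused replicate 2 and to 7 without paused replicate 4. It moved the lower calls from 8 to 3 without control replicate 1, to 4 without control replicate 2, 3 or 4 and to 5 without paused replicate 4.

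**Figure D1:**
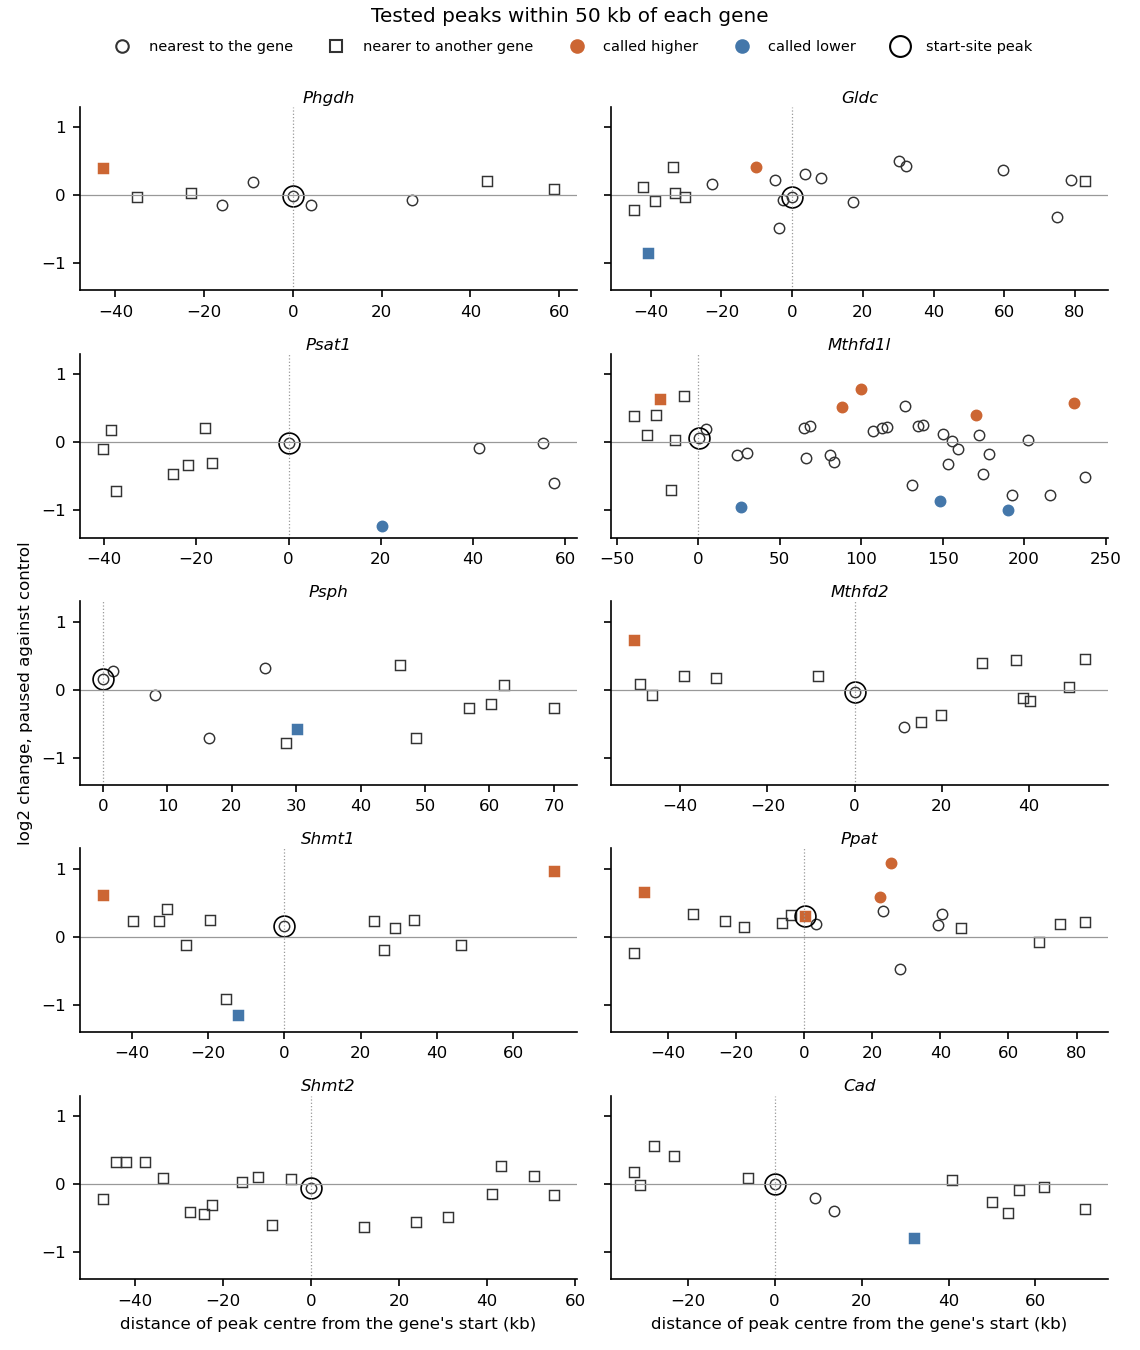
Log2 change of each tested peak, paused against control, on the vertical axis against the distance of its centre from the gene's annotated start in kb, with 1 panel per gene. Circles are peaks nearest to the gene and squares peaks nearer to another, orange and blue fills mark the 14 higher and 8 lower calls, and large rings mark the start-site peaks, of which only that of Ppat is filled.

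The start-site peak of a gene, its strongest peak within 1 kb of an annotated start, was called for 1 of the 10 genes, and that peak was higher in paused cells. Over all protein-coding genes 10682 such peaks were found, of which 10604 were tested, and 11.3% of these were called higher and 0.538% lower. The median log2 change was -0.00 for the 10 genes, with a range from -0.07 to 0.31, against 0.19 for all start-site peaks. 9 of the 10 lay below that overall median under each of the other pseudocount, filters, tests and scalings tried, and 8 or 9 did so when any 1 library was left out. The difference between the medians was between -0.20 and -0.15 in all of these, and it was not tested. Scaling by another factor per library moves all peaks by nearly the same amount. The settings that differ only in that factor could therefore hardly change the count or the difference, and are no separate check of them. The start-site peaks of these genes were strong, with a median value of 287 against 183 for all start-site peaks and 32.3 for all peaks in the table.

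**Figure D2:**
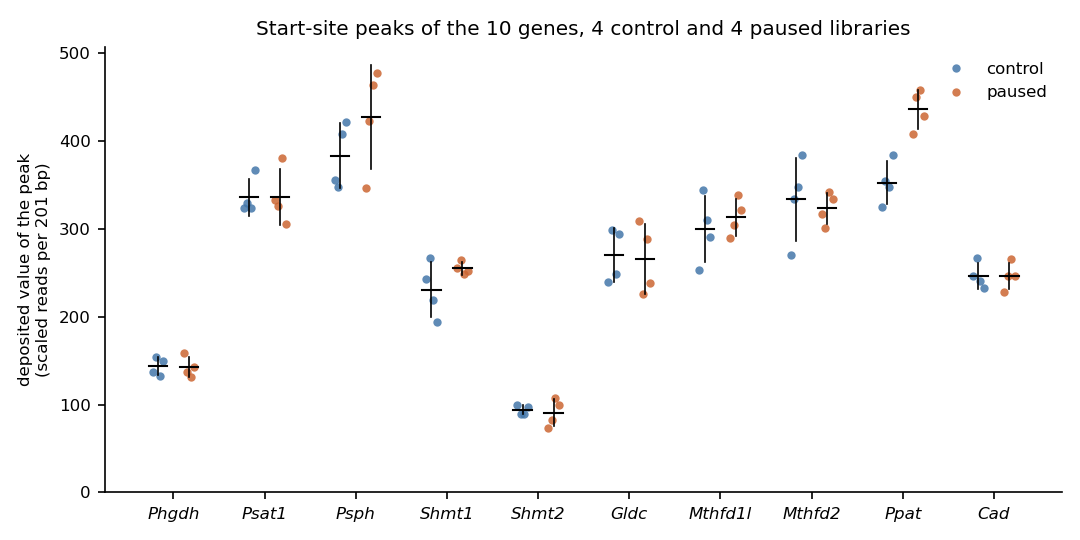
Deposited value of the start-site peak of each gene (scaled reads per 201 bp), with 1 point per library, the mean as a horizontal line and the SD as a vertical bar, control in blue and paused in orange (n = 4 each). The groups overlap for every gene except Ppat, whose 4 paused libraries lie between 408 and 458 and whose 4 control libraries lie between 325 and 384.

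In the serine pathway none of the 3 start-site peaks passed the test. Phgdh catalyses the first step, and its start-site peak (chr3:98339857-98340057) had values of 138, 154, 132 and 149.9 in control replicates 1 to 4 and of 159, 137, 132 and 143 in paused replicates 1 to 4. The groups overlapped almost completely, at 143 ± 10.3 in control and 143 ± 11.8 in paused libraries (SD, n = 4), with a log2 change of -0.01 (SE 0.12, adjusted p = 0.978). For Psat1, which transfers the amino group in the second step, the peak (chr19:15924921-15925121) gave 324, 329.6, 323 and 367 in control and 332, 327, 380.1 and 306 in paused libraries. Control replicate 4 and paused replicate 3 were the high libraries, and the log2 change was -0.00 (SE 0.10, adjusted p = 0.992). Psph removes the phosphate in the last step, and its start-site peak (chr5:129787150-129787350) was the strongest of the 10 in control libraries, at 383 ± 37.2 against 427 ± 58.9 in paused libraries, with a log2 change of 0.15 (adjusted p = 0.366). Its sign turned under 2 scalings, to -0.01 with total reads in peaks and -0.06 with loess.

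Apart from the start-site peaks, 3 of the 32 tested peaks around these 3 genes were called (9.38%, against 13.9% of all peaks), 1 for each gene. A weak peak 852 bp past the end of Psat1 (chr19:15904171-15904371) had values of 15.6, 22.7, 11.8 and 19.1 in control and 6.92, 6.31, 4.65 and 9.37 in paused libraries. All paused values lay below all control values, on 3 to 8 reads per paused library. The peak fell by 1.23 on the log2 scale (SE 0.35, adjusted p = 0.0167), and the call was lost without control replicate 2 (adjusted p = 0.0734), without control replicate 4 (0.0524) and under loess (0.0718). The call was kept after TMM rescaling (0.0135), with total reads in peaks (0.0114) and in DESeq2 (0.0451). This peak had too few reads for edgeR's own filter. The 12 tested peaks of the Psat1 window had a median log2 change of -0.20 with 10 of the 12 below 0, against 0.10 and 38.7% for all peaks. Of the 13 peaks in that window, 7 were nearest to Cep78 and 6 to Psat1.

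The other 2 of these calls lay nearer to other genes. A peak inside Zfp697, a zinc finger gene 42805 bp upstream of the Phgdh start (chr3:98382674-98382874), gave 121, 143, 139 and 137 in control and 199.6, 142, 208 and 173 in paused libraries. Paused replicate 2 fell within the control range and the other 3 paused libraries lay above it. The peak rose by 0.41 (SE 0.13, adjusted p = 0.025), and the call was lost without control replicate 1 (0.0849) and without paused replicate 1 (0.08), 3 (0.0892) or 4 (0.0527). It was also lost after TMM rescaling (0.11), with edgeR and TMM (0.0565), with total reads (0.185), in DESeq2 (0.17) and under loess (0.303). A peak inside Nipsnap2, 30135 bp downstream of the Psph start (chr5:129757018-129757218), fell by 0.58 (adjusted p = 0.0398), from 43.4 ± 4.84 to 28.8 ± 4.78 with no overlap. Its call was lost without control replicate 1 (0.0742), 2 (0.11) or 3 (0.0859) and without paused replicate 1 (0.111) or 4 (0.0782), and in DESeq2 (0.0911), and held under TMM rescaling (0.0198) and loess (0.0214).

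Among the genes that move a carbon between serine, glycine and folate, no start-site peak was called. Shmt1, the cytosolic hydroxymethyltransferase, had a start-site peak (chr11:60811236-60811436) of 230.5 ± 31.3 in control and 255 ± 7.18 in paused libraries, a log2 change of 0.15 (SE 0.11, adjusted p = 0.372) that turned to -0.00 with total reads in peaks and -0.05 under loess. The peak of Shmt2, its mitochondrial counterpart (chr10:127522330-127522530), was the weakest of the 10, with values of 99.6, 89.6, 89.7 and 97.0 in control and 73.8, 82.0, 107 and 99.6 in paused libraries. Paused replicates 1 and 2 lay below the control range, paused replicate 3 above it and paused replicate 4 just above it, with a log2 change of -0.07 (SE 0.14, adjusted p = 0.797). None of the 20 peaks of the Shmt2 window, of which 1 is nearest to Shmt2, was called by limma-trend (13.9% of all peaks), with 3 of them (15.0%) at an unadjusted p under 0.05 against 28.7% of all peaks. Gldc, the decarboxylase of the glycine cleavage system, had a start-site peak (chr19:30175382-30175582) of 270.2 ± 30.4 in control and 265 ± 40.0 in paused libraries (log2 change -0.03, adjusted p = 0.887).

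The smallest adjusted p of all 183 peaks belonged to a peak 70768 bp downstream of the Shmt1 start, inside Top3a, a topoisomerase gene (chr11:60740397-60740597). Its values were 41.5, 39.4, 55.9 and 47.0 in control and 103, 66.2, 83.8 and 116 in paused libraries, with every paused library above every control. The peak rose by 0.97 (SE 0.17, adjusted p = 0.00011) and was called under all 18 alternatives tried. Upstream of Shmt1, a peak outside any gene and nearest to Dhrs7b (chr11:60823283-60823483, 12118 bp from the Shmt1 start) fell by 1.15 (SE 0.27, adjusted p = 0.00316). It went from 28.7, 22.7, 23.7 and 35.3 in control to 10.4, 14.2, 10.9 and 11.7 in paused libraries, without overlap, and was called with any 1 library left out and under each rescaling. A further peak near Dhrs7b, 47577 bp upstream of the Shmt1 start, rose from 32.1 ± 6.64 to 49.1 ± 7.64 (log2 change 0.61, adjusted p = 0.0281), and lost the call without control replicate 3 (0.106), without paused replicate 2 (0.106), under TMM rescaling (0.0804), with edgeR and TMM (0.101), in DESeq2 (0.262) and under loess (0.101).

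Near Gldc the strongest peak apart from the start site was called. It lies outside any gene, 10295 bp upstream (chr19:30185636-30185836), and had values of 160.4, 167, 140.5 and 165 in control and 235, 202, 219 and 193 in paused libraries. The groups did not overlap, and the peak rose by 0.42 (SE 0.11, adjusted p = 0.0111) and stayed called with any 1 library left out. The adjusted p was 0.0617 after TMM rescaling, 0.066 with edgeR and TMM, 0.14 in DESeq2 and 0.219 under loess. A weak peak 40658 bp upstream, nearest to the lectin gene Mbl2 (chr19:30215999-30216199), fell by 0.85 (adjusted p = 0.0321), from 23.6 ± 3.00 to 12.8 ± 2.58 without overlap. That call was lost without control replicate 1 (0.0955), 3 (0.0759) or 4 (0.0751), without paused replicate 1 (0.0719) or 3 (0.0598), in DESeq2 (0.0811) and under loess (0.0525). The same call held after TMM rescaling (0.0213), with edgeR and TMM (0.00729) and with total reads (0.0163).

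For the mitochondrial folate enzymes the start-site peaks again overlapped between the groups. Mthfd2, whose dehydrogenase is known for its high expression in embryonic and tumour cells, had values of 270.3, 334, 347 and 384 in control and 317, 301, 341 and 334 in paused libraries (chr6:83317506-83317706). The controls spanned a wider range than the paused libraries and enclosed all of them, with a log2 change of -0.04 (SE 0.11, adjusted p = 0.861). The start-site peak of Mthfd1l, the formate-releasing synthetase (chr10:3973517-3973717), was 299.6 ± 37.8 in control and 313 ± 21.0 in paused libraries. Its log2 change was 0.07 (SE 0.11, adjusted p = 0.708) and was negative under TMM rescaling, edgeR with TMM, DESeq2, total reads and loess. The only call in the 16 peaks of the Mthfd2 window lay inside Tet3, a gene for an enzyme that oxidises methylcytosine (chr6:83368133-83368333), where values rose from 23.0 ± 9.89 to 36.2 ± 3.41 with overlap (log2 change 0.72, adjusted p = 0.0382). It was lost without control replicate 3 (0.156) or 4 (0.121), without paused replicate 1 (0.0571), 2 (0.0995), 3 (0.0506) or 4 (0.0837), after TMM rescaling (0.0918), with edgeR and TMM (0.228), in DESeq2 (0.393) and under loess (0.0851).

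Mthfd1l, the longest of these genes, held 34 of the 77 tested peaks nearest to their own gene and 7 of the 11 called ones. In its window 5 peaks were higher and 3 lower of 41 (12.2% and 7.32%, against 11.0% and 2.91% of all peaks). The one with the smallest adjusted p lay 36760 bp past the gene's end and 230766 bp from its start (chr10:4203741-4203941), with values of 78.1, 81.2, 69.4 and 88.2 in control and 106, 115, 115 and 138 in paused libraries. Every paused library lay above every control, and the peak rose by 0.57 (SE 0.14, adjusted p = 0.00337). It stayed called with any 1 library left out, and its adjusted p was 0.0175 after TMM rescaling, 0.0592 under loess and 0.057 in DESeq2.

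Within Mthfd1l, 3 peaks rose and 3 fell. Those that rose lay 88128, 99605 and 170512 bp from the start, with log2 changes of 0.52, 0.78 and 0.40 and adjusted p of 0.0207, 0.0338 and 0.0329. The first went from 53.9 ± 3.03 to 79.1 ± 15.7 and the last from 110.6 ± 14.1 to 147 ± 20.9, both without overlap, and the middle one from 18.7 ± 4.42 to 33.8 ± 11.2 with overlap. The call at 88128 bp was lost without control replicate 4 (0.0531) and without paused replicate 1 (0.0734) or 4 (0.105). The call at 99605 bp was lost without control replicate 1 (0.069) or 4 (0.113) and without paused replicate 1 (0.0858), 2 (0.144) or 4 (0.0944). That at 170512 bp was lost without control replicate 1 (0.0847) or 4 (0.12) and without paused replicate 2 (0.0734) or 4 (0.156). None of the 3 was called by limma-trend after TMM rescaling or under loess, or in DESeq2. With edgeR and TMM the calls at 88128 and 99605 bp held (0.0356 and 0.0226) and that at 170512 bp was lost (0.0905).

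The peaks that fell were weak ones at 26349, 148311 and 190125 bp, with 3 to 13 reads in each paused library and log2 changes of -0.95, -0.86 and -0.99. At 26349 bp the value went from 17.9 ± 4.08 to 8.67 ± 1.63 (adjusted p = 0.0443) without overlap. At 148311 bp it went from 20.8 ± 3.97 to 11.1 ± 2.70 (adjusted p = 0.0461), also without overlap, and at 190125 bp from 18.7 ± 5.06 to 9.31 ± 4.27 (adjusted p = 0.0452) with overlap. The first was lost without any of the 8 libraries except control replicate 3, with adjusted p up to 0.144, and the second without any except paused replicates 1 and 3, up to 0.132. The last was lost without any except paused replicate 1, up to 0.15, and none of the 3 was called under loess or in DESeq2. All 3 were called after TMM rescaling (0.0328, 0.0331 and 0.0362). The second and the last were also called with edgeR and TMM (0.0347 and 0.0398). Outside the gene, a peak inside Plekhg1, 23646 bp upstream, rose from 27.3 ± 6.51 to 42.6 ± 6.87 (log2 change 0.64, adjusted p = 0.0321). Its call was lost without control replicate 1 (0.0571), 3 (0.108) or 4 (0.0677), without paused replicate 3 (0.0898) or 4 (0.0979), after TMM rescaling (0.0845), with edgeR and TMM (0.0974), in DESeq2 (0.271) and under loess (0.0951).

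The nucleotide genes held the start-site peak that changed. Ppat is the amidotransferase that commits the pathway to purines, and Paics, on the opposite strand, carries out later steps of it. Their shared peak (chr5:76951262-76951462) had values of 325, 355, 347 and 384 in control replicates 1 to 4 and of 408, 449.5, 458 and 429 in paused replicates 1 to 4. All paused libraries lay above all controls, at 436 ± 22.1 against 352 ± 24.3 (SD, n = 4), and the peak rose by 0.31 on the log2 scale (SE 0.10, adjusted p = 0.0326). The median change of all start-site peaks was 0.19. The call was lost without control replicate 1 (0.0897) or 3 (0.0762) and without paused replicate 2 (0.083), 3 (0.0685) or 4 (0.076). It was also lost after TMM rescaling (0.163), with edgeR and TMM (0.193), in DESeq2 (0.234) and under loess (0.499), with the direction kept.

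**Figure D3:**
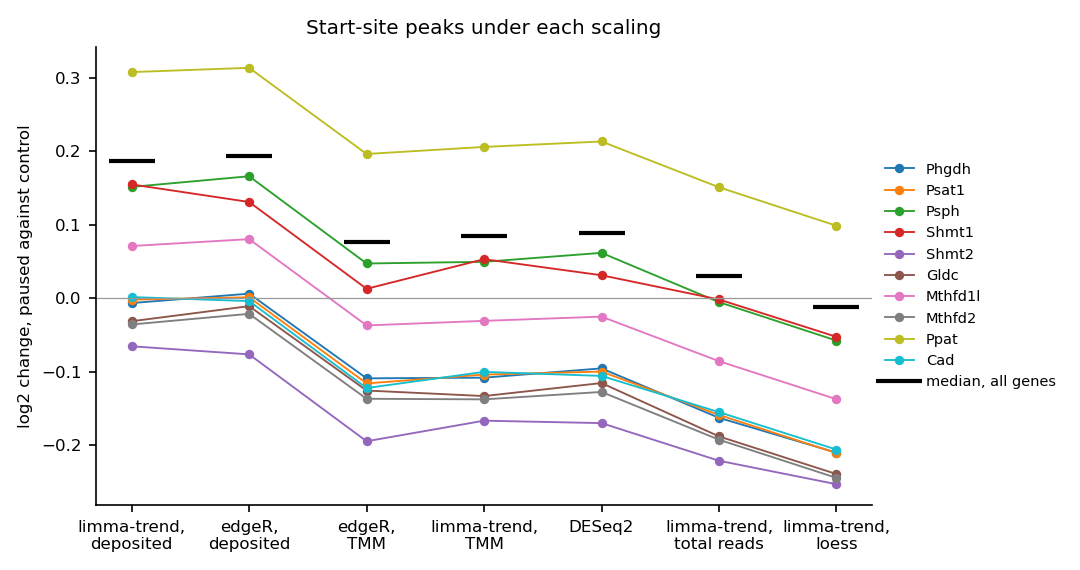
Log2 change of the start-site peak of each gene (1 line per gene) under limma-trend, edgeR and DESeq2 with the scalings named on the horizontal axis, with black bars for the median of all start-site peaks tested. All lines and the bars are lower under loess than with the deposited factors, though they do not fall at every step between. Ppat is the only gene above the bar under each.

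Inside Ppat 2 more peaks rose. One lies 25552 bp from the start (chr5:76925926-76926126), with values of 34.2, 20.3, 13.6 and 8.82 in control and 28.8, 42.6, 35.7 and 44.5 in paused libraries. Control replicate 1 lay within the paused range and the other 3 controls below it. The log2 change was 1.09 (SE 0.27, adjusted p = 0.00575), and the call held with any 1 library left out and under loess (0.0133), but not with edgeR and TMM (0.142) or in DESeq2 (0.213). The other lies 22222 bp from the start (chr5:76929256-76929456), and its values were 51.2, 50.2, 42.3 and 51.4 in control and 75.0, 83.6, 59.0 and 77.3 in paused libraries. These did not overlap, and the rise of 0.58 (SE 0.16, adjusted p = 0.0113) held with any 1 library left out and after TMM rescaling (0.045), with 0.091 under loess and 0.148 in DESeq2. A peak inside Srp72, a signal recognition particle gene 46953 bp upstream of the Ppat start, rose from 34.3 ± 6.26 to 54.6 ± 9.04 (log2 change 0.66, adjusted p = 0.0139). Its call was lost without control replicate 4 (0.0572) or paused replicate 2 (0.0604), with edgeR and TMM (0.0544), with total reads (0.0771), in DESeq2 (0.174) and under loess (0.0665). After TMM rescaling it held (0.0453). Of the 19 peaks of the Ppat window, 4 were called higher and 0 lower on the deposited scale, on which 11.0% of all peaks were called higher and 2.91% lower.

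Cad carries the opening enzyme activities of pyrimidine synthesis on 1 protein. Its start-site peak (chr5:31054714-31054914) had values of 246, 266, 240.4 and 232 in control and 228, 246, 265 and 246 in paused libraries. The means were 246 ± 14.6 and 246 ± 15.1, and the log2 change of 0.00 (SE 0.11, adjusted p = 0.995) turned to between -0.21 and -0.00 with edgeR, DESeq2 and each rescaling. The strongest other peak of Cad, 13739 bp into the gene, went from 37.3 ± 3.06 to 28.1 ± 2.75 with all paused values below the controls, but was not called (log2 change -0.40, adjusted p = 0.18). The call in its window lay inside Slc30a3, a zinc transporter gene 31998 bp downstream (chr5:31086678-31086878). There the values were 51.9, 37.0, 44.0 and 39.7 in control and 20.8, 23.7, 26.4 and 26.9 in paused libraries, without overlap. The peak fell by 0.79 (SE 0.20, adjusted p = 0.00664), and the call held with any 1 library left out and under each rescaling.

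**Figure D4:**
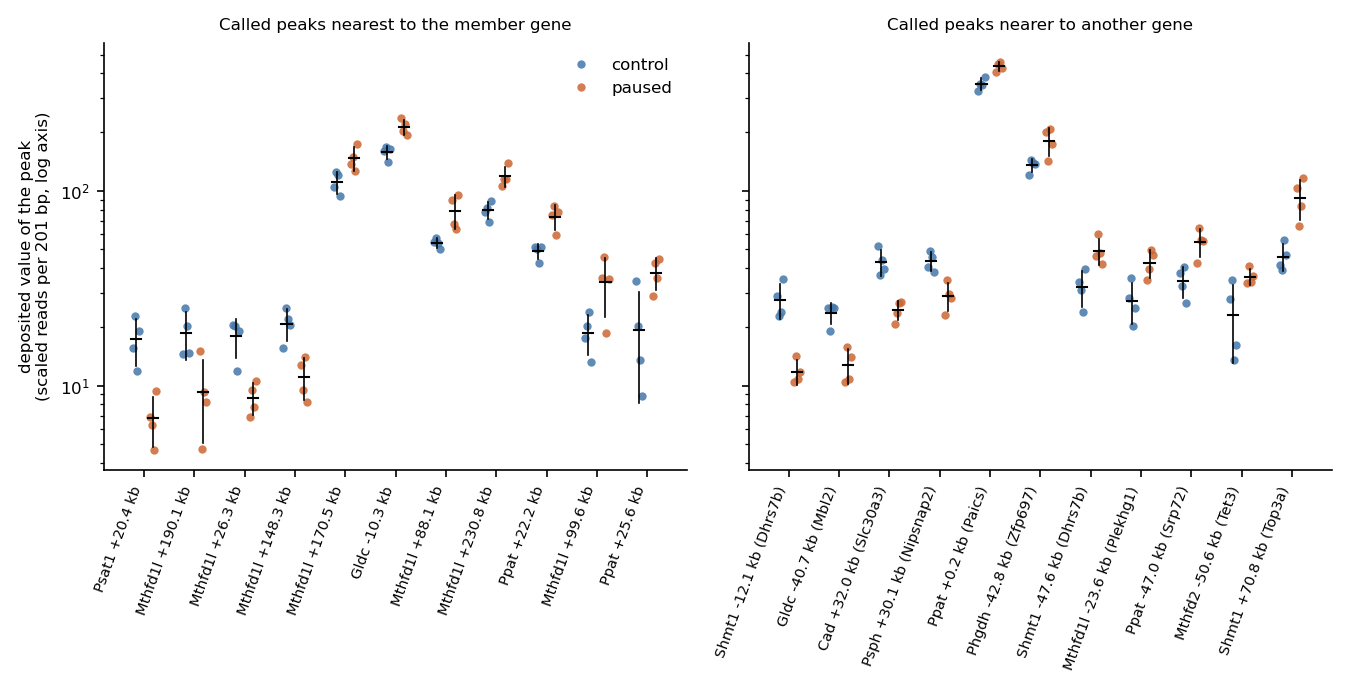
Deposited value (log axis, scaled reads per 201 bp) of the 22 called peaks in each library, control in blue and paused in orange, with the mean and SD of each group (n = 4). The left panel holds the 11 peaks nearest to their own gene and the right panel the 11 nearer to another gene, named in brackets, and distances are from the member's start. The lower peaks are among the weakest, and the peak shared by Ppat and Paics is the strongest.

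When all peaks nearest to a gene were summed, 2 of the 10 genes were higher in paused cells and 0 lower, in limma-trend on log2(sum + 1) over 18118 genes. In that fit 29.6% of all genes were called higher and 1.41% lower, with a median log2 change of 0.15, so that these counts hold nothing particular to the 10 genes. Ppat, whose sum leaves out the peak nearer to Paics, rose from 239, 224.5, 229 and 226 in control to 281, 320.2, 264 and 343 in paused libraries, without overlap (log2 change 0.39, SE 0.09, adjusted p = 0.00282). Gldc rose from 839.6 ± 66.3 to 952 ± 61.4 with overlap (0.18, SE 0.06, adjusted p = 0.0292), and lost the call without control replicate 1 (0.0571) or 3 (0.133) and without paused replicate 1 (0.0815) or 3 (0.0733). After TMM rescaling, under which 4.75% of all genes were higher and 4.24% lower, 0 of the 10 were higher and 1 was lower. Ppat then had an adjusted p of 0.0919 and Gldc of 0.757. The gene called lower was Psat1, whose sum had been 458 ± 36.6 in control and 427 ± 28.1 in paused libraries with a log2 change of -0.10 (adjusted p = 0.315). Its change was -0.25 after TMM rescaling (0.0288), and the adjusted p was 0.0214 with edgeR and TMM, 0.024 under loess, 0.0411 in DESeq2 and 0.0258 with total reads. The other 7 sums ranged from -0.07 to 0.16 on the deposited scale.

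The wider pathway was followed through 63 other genes of serine, glycine, folate, methionine, purine, pyrimidine and deoxynucleotide synthesis, of which 59 were tested. On the deposited scale 16 rose and 0 fell (27.1%, near the 29.6% of all genes), and 1 rose and 0 fell after TMM rescaling. The count of 16 was 9 without control replicate 1, 9 without paused replicate 3 and 6 without paused replicate 4. By group, 2 of 12 genes rose for serine and glycine, 5 of 13 for folate, 3 of 7 for methionine, 4 of 11 for purines, 1 of 7 for pyrimidines and 1 of 9 for deoxynucleotides.

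The gene called under both scalings was Amt, the aminomethyltransferase that works beside Gldc in glycine cleavage. Its single peak, at the gene's start, gave 261, 210.2, 256 and 247 in control and 298, 315, 369 and 363 in paused libraries, without overlap, and rose by 0.46 (SE 0.09, adjusted p = 0.000663, and 0.0205 after TMM rescaling). The Amt call was lost in DESeq2 (0.0516) and held with edgeR and TMM (0.0275) and under loess (0.0238). Slc25a32, a mitochondrial folate carrier, rose from 352 ± 21.0 to 459 ± 67.6 (0.37, adjusted p = 0.00263). Tdh, the threonine dehydrogenase known for its high expression in mouse embryonic stem cells, rose from 682 ± 32.0 to 838 ± 51.6 (0.30, adjusted p = 0.00105). Neither was called after TMM rescaling (0.0695 and 0.11). The next 7 by size were Tyms (0.29), Paics (0.28, a sum that holds the peak shared with Ppat), Dhodh (0.28), Mtfmt (0.27), Nme1 (0.26), Mat2a (0.25) and Cth (0.25), all on the deposited scale, and none of them was called after TMM rescaling. Among them Tyms lost the call without paused replicate 4 (0.0775), Dhodh without paused replicate 3 (0.0538) or 4 (0.0532), and Cth without control replicate 1 (0.0518) or paused replicate 3 (0.052) or 4 (0.0628). Nme1 lost it without control replicate 2 (0.0985) or 3 (0.101) or paused replicate 3 (0.076) or 4 (0.13). For Mtfmt and Mat2a it was lost without control replicate 1 (0.107 and 0.0779) or 4 (0.159 and 0.0682), and without paused replicate 2 (0.0818 and 0.0729) or 4 (0.133 and 0.0613). Mtfmt also lost it without paused replicate 1 (0.0575), and Mat2a without control replicate 3 (0.098).

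**Figure D5:**
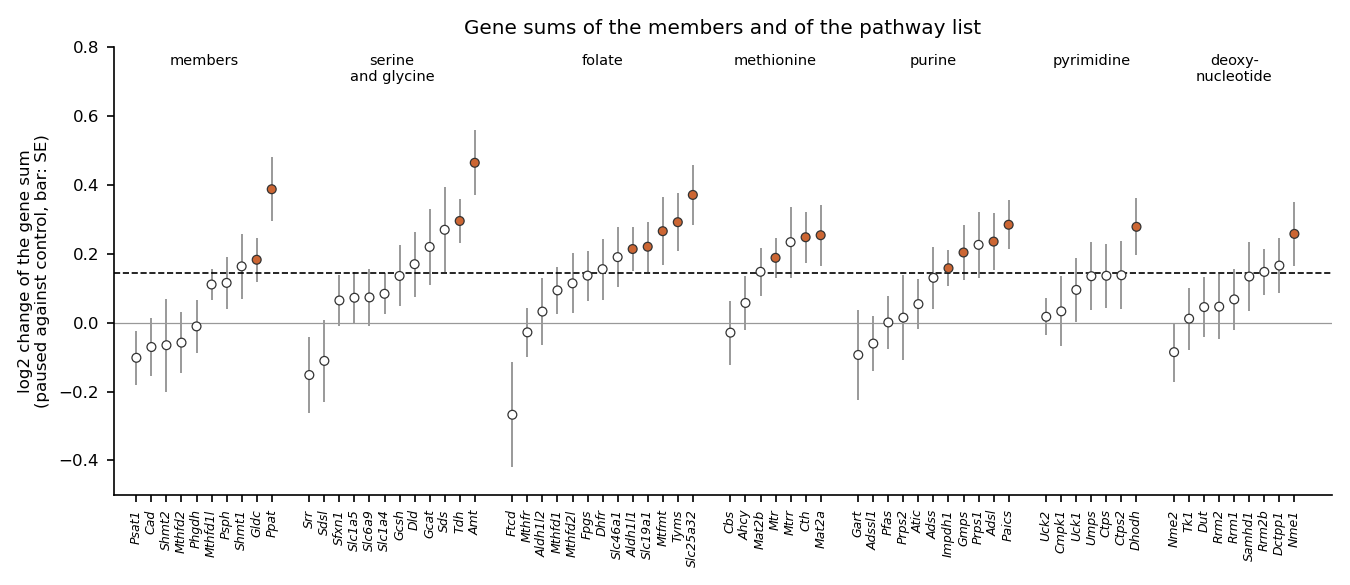
Log2 change of the gene sum, paused against control, with its SE as a bar, for the 10 genes and for the 59 tested genes of the pathway list by group. Filled points were called higher, the dashed line is the median of all 18118 genes, and 8 of the 10 members and 43 of the 59 other genes are not filled.

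Of the sequence features searched in the start-site windows on both strands, CCAAT, the box bound by NF-Y, was in 6 of the 10 genes (37.4% of 32851 promoter windows of this length). GGGCGG, the GC box bound by Sp factors, was in 7 (35.7%). A gene counts when any of its windows holds the match, while the shares are of windows. The GGGCGG matches of Psat1 (only in the window of its other annotated start), Mthfd1l and Ppat lie outside the start-site peak. Neither CACGTG, the E-box of Myc and Max (7.15%), nor TTGCATCA, the composite element of Atf4 (0.895%), nor TGACGTCA, the cyclic AMP element (1.79%), was found in any of the 10. In the printed Psat1 window CCAAT starts at positions -36, -6 and 24 and in the Mthfd2 window at -96, -47 and -22, counted from the annotated start as 1 with no 0, all inside the peak. In Phgdh it starts at -193, outside the peak, and at -23, inside it. The Paics window holds CCAAT at -23 and GGGCGG at 1 inside the peak, and CACGTG at -203 and GGGCGG at -99 outside it. The 11 windows of the 10 genes, of which Psat1 has 2, held a median of 17 CG pairs against 7 over all promoter windows and a median GC content of 59.7% against 52.7%. A match is a description of the letters, not a bound site.

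The start-site peaks held a similar share of all values in the 10 windows in both groups, 22.2% ± 0.831 in control and 21.9% ± 0.539 in paused libraries, with overlap. Over the whole table the share in start-site peaks was 25.6% ± 0.966 and 26.2% ± 0.798. At the limit of the windows, the last peak inside, 49915 bp from Shmt2 and nearest to R3hdm2, had 10.4 ± 1.73 in control and 9.85 ± 4.31 in paused libraries. The first outside, 50079 bp from Psph and nearest to Mrps17, had 140.5 ± 3.54 and 174 ± 14.0. The authors' deposited table lists 10 higher and 4 lower of the 191 peaks at an FDR under 0.05 (5.24% and 2.09%, against 9.19% and 1.80% of all peaks), and this fit of the same values called all 14 as well, which is not independent evidence.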

How the data were processed

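ATAC-seq libraries of 4 control and 4 paused samples were grouped by the sample titles. Per the submitters' processing notes, FastQC, Trim Galore, Bowtie2 2.4.1, MACS3 3.0.3, DiffBind 3.16.0 and the build mm10 were used; read filters and the handling of the Tn5 offset are not given in the sources used here. The signal values deposited by the authors are reads per peak divided by 1 factor per library with 2 decimals kept. The reads were recovered from these: 100% of each of the 8 columns lay within 0.006 of a whole multiple of 1 step, and how the factors were made is not given in the sources used here. The log2 folds and the p-values with their FDR deposited by the authors stand only in sentences that name the authors' deposited table. Unused sample columns numbered 0.

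The main test was limma-trend (limma 3.58.1, R 4.3.3) on log2(value + 1), two-sided and without covariates, over peaks whose mean value reached 10, with p-values adjusted by Benjamini and Hochberg over all peaks (or over all genes, for sums of the peaks nearest to each gene within 50 kb). Fold changes on this scale understate the change of weak peaks. Alternatives were a pseudocount of 0.1, no filter, a minimum mean of 50 reads, TMM, total-read and loess (span 0.3) rescaling, a replicate block, each library left out in turn, and edgeR 4.0.16 (quasi-likelihood) and DESeq2 1.42.0 on the recovered reads. On these reads edgeR called 15401 peaks with TMM and 20732 with the deposited factors. Adjusted p-values that DESeq2 left missing (5212 peaks and 712 genes) stayed missing. The median log2 change of all peaks was 0.10 with the deposited factors and 0.00 after TMM rescaling.

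Depth was 4434037 to 21161767 reads in peaks per library. A count of 0 is read as at most 3 reads, a value between 1.04 (control replicate 1) and 5.08 (control replicate 3), for counting error only. Gene spans and start-site windows were those of RefSeq on GRCm38.p6, with all 10 members and all 63 pathway symbols matched. Exons and introns were not analysed here. Fitting was tested on simulated data. The members, gene lists and tests were chosen with earlier results of these data known. Peaks named in the text are, for each gene, the strongest within 1 kb of a start, the strongest other one nearest to the gene, and the called ones (at most 10 of those nearer to another gene, plus the start-site peak of Ppat); named pathway genes are the 10 called with the largest change.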

Additional observations from a re-analysis of the deposited data

Results flagged for a closer look

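Among 120 groups of 4 libraries, 8 had a library far from the other 3 (Dixon's test at the 95% level), where chance flags about 1 in 20. In the control libraries these were the Psat1 start-site peak, with a value of 367 against 323 to 329.6 in the others, and the Psph peak at 8012 bp, with 169.6 against 199.8 to 204. The Mthfd1l peak at 26349 bp had 11.8 against 19.1 to 20.4, the Ppat peak at 22222 bp 42.3 against 50.2 to 51.4, and the peak 40658 bp upstream of Gldc 19.1 against 24.9 to 25.4. Among gene sums, Dhodh had 343 in a control library against 396 to 407. In the paused libraries the sum of Shmt1 was 280.8 in 1 library against 259 to 262, and that of Mat2a 329.6 against 310.5 to 313.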

How the results depend on the processing

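The pseudocount, the absence of a filter and the deposited factors in edgeR left the counts of calls within 1.5 times of those reported; the scalings did not, and the cause was not tested. Higher calls among the peaks around the 10 genes went from 14 to 5 with edgeR and TMM and after TMM rescaling, to 1 in DESeq2, 3 with total reads and 2 under loess. Lower calls went from 8 to 14 with edgeR and TMM, 13 after TMM rescaling, 14 with total reads, 3 in DESeq2 and 0 under a minimum mean of 50 reads, which leaves out the weak peaks that fell. Leaving out 1 library gave 7 to 14 higher and 3 to 7 lower peaks. Gene sums called higher went from 2 to 0, and lower from 0 to 1, with edgeR and TMM, in DESeq2, after TMM rescaling, with total reads and under loess, and leaving out 1 library gave 1 to 3 higher and 0 lower. In the pathway list the 16 higher sums became 1 with edgeR and TMM, after TMM rescaling, with total reads and under loess, and 0 in DESeq2; 1 was lower, in place of 0, with edgeR and TMM, total reads and loess. Leaving out 1 library gave 6 to 19 higher and 0 lower.

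Small changes turned in sign. The start-site change of Cad, 0.00, became -0.12 with edgeR and TMM, -0.0041 with edgeR and the deposited factors, -0.11 in DESeq2, -0.10 after TMM rescaling, -0.16 with total reads and -0.21 under loess. In the same order without the deposited factors, that of Mthfd1l became -0.0372, -0.0253, -0.031, -0.0858 and -0.14, its gene sum -0.0314, -0.031, -0.0342, -0.0401 and -0.0433, and the gene sum of Psph -0.0242, -0.0254, -0.0294, -0.0352 and -0.0355. The gene sum of Shmt1 became -0.0226 with edgeR and TMM and -0.0139 in DESeq2. With total reads and under loess the start-site changes became -0.0056 and -0.0579 for Psph and -0.0019 and -0.0527 for Shmt1. With edgeR and the deposited factors Phgdh became 0.0060 and Psat1 0.0011. With 1 library left out, start-site changes ran from -0.0346 to 0.0397 for Cad, -0.11 to 0.0421 for Gldc, -0.0065 to 0.14 for Mthfd1l, -0.13 to 0.0344 for Mthfd2, -0.0599 to 0.0300 for Phgdh, -0.0627 to 0.0417 for Psat1 and -0.15 to 0.0266 for Shmt2, whose sum is the same peak. The Phgdh peak at 26811 bp ran from -0.15 to 0.0088, the Psat1 peak at 41347 bp from -0.21 to 0.0257, and the gene sums of Mthfd2 from -0.15 to 0.00048 and of Phgdh from -0.0336 to 0.0144. The share in start-site peaks, whose omission of each library was chosen after seeing the data, was lower in paused libraries by 0.145 to 0.767 percentage points in these fits.

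Whether libraries with the same replicate number share more than that number was not tested. Their deviations from the group means correlated at 0.079, 0.036, 0.133 and 0.039 for replicates 1 to 4. Pairs with different numbers ran from -0.105 to 0.070, the highest being control replicate 2 with paused replicate 1. With a replicate block 17 peaks were higher and 10 lower, 3 gene sums were higher (Mthfd1l added, adjusted p = 0.0135), and calls over all peaks went from 17660 to 21994. The Psat1 peak at 20351 bp and the Mthfd1l peak at 26349 bp have no value with edgeR, whose filter on low counts leaves them out. A median peak of 18 reads in the shallowest library limits what could be called among weak peaks.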
